A study of Mus musculus with 12 samples.

Results

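Adipokines are the hormones and other signalling proteins that fat cells secrete. The genes described here encode 6 secreted adipocyte factors and the 2 adiponectin receptors, and they were Adipoq (adiponectin), Lep (leptin), Retn (resistin), Rarres2 (chemerin), Cfd (adipsin), Angptl4 (angiopoietin-like 4), Adipor1 and Adipor2. They were taken by name, as the rows of the deposited expression table whose Ensembl identifier belongs to one of these symbols, and they are 8 of the 46983 genes in that table. Their values were followed through WT and PPARγ/+ C2C12 cells on 0d and 5d of differentiation.

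The C2C12 line was derived from mouse muscle, and its myoblasts stop dividing and fuse into myotubes when they differentiate. WT cells were the control group of the PiggyBac vector PB-IP. PPARγ/+ cells carried the coding sequence of PPARγ in that vector, which was introduced with transposase and followed by puromycin selection, and the number of clones was not given. The deposited design text calls the PPARγ line inducible and its controls uninduced, whereas the methods of the study name no inducing agent. RNA was sequenced from 3 libraries in each of the 4 groups WT_0d, WT_5d, PPARγ/+_0d and PPARγ/+_5d, 12 in all, and the medium of all cells contained serum and LIF. The study calls its replicates biological, and the sources used here do not say whether they were separate cultures, so the p-values measure the spread between these libraries.

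PPARγ is the nuclear receptor that drives fat cell formation, and it acts as a pair with a retinoid X receptor. Adiponectin, leptin and adipsin are classical products of mature fat cells, and Adipoq and Angptl4 are known target genes of PPAR receptors. Angptl4 is also made outside fat, muscle included. Adiponectin acts on muscle and liver through Adipor1 and Adipor2, which are expressed in many tissues. Cultured myoblasts can take on traits of fat cells when PPARγ is supplied in excess.

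Promoter sequences are shown for a gene that was nearly silent in WT cells and high in PPARγ/+ cells (Adipoq), a gene measured almost only in PPARγ/+ cells on 5d (Cfd), a gene without a fragment in any library (Lep) and a gene of nearly equal level in all groups (Adipor2). Each is the RefSeq promoter of 300 bases, from 250 before to 50 after the transcription start, written 5′ to 3′ on the strand of the gene in GRCm38.p6, with each CG dinucleotide in capitals. The Adipoq window is chr16:23146286-23146585 on the plus strand, the Cfd window chr10:79890603-79890902 on the plus strand, the Lep window chr6:29059971-29060270 on the plus strand and the Adipor2 window chr6:119388685-119388984 on the minus strand.
Adipoq: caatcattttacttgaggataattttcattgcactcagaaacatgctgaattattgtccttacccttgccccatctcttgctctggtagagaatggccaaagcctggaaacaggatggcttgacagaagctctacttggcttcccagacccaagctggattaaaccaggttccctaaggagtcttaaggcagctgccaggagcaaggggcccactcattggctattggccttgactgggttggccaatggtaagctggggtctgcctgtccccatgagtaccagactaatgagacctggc
Cfd: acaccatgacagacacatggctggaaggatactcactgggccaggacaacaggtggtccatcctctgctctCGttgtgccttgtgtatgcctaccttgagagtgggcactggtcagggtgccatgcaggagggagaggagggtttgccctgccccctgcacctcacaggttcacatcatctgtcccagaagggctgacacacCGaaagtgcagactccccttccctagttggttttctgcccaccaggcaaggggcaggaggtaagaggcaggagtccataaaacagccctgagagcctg
Lep: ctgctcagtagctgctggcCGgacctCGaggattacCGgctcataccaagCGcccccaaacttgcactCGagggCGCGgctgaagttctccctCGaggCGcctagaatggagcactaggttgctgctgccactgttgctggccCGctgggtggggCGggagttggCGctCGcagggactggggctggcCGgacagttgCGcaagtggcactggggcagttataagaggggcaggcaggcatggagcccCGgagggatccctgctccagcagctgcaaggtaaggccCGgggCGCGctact
Adipor2: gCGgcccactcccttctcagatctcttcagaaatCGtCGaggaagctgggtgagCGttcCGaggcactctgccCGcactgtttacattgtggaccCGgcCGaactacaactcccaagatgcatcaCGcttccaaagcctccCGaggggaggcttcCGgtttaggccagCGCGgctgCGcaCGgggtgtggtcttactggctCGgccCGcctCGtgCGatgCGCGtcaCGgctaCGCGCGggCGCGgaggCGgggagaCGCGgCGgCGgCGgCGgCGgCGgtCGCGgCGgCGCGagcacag

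The Adipoq promoter held 0 CG dinucleotides and those of Cfd and Retn held 2 each, whereas the median over 32851 mouse promoters was 7. Only 5.43% of all promoters held as few as Adipoq, and 23.3% held 2 or fewer. The Lep promoter held 19, the Adipor2 promoter 41, and the RefSeq promoters at the 2 starts of Adipor1 held 21 and 40. A count of 41 or fewer was found in 97.0% of promoters. The GC content was 50% for Adipoq, 57.7% for Cfd, 66.0% for Lep and 68.7% for Adipor2. RefSeq windows were matched for 6 of the 8 genes, which were all but Angptl4 and Rarres2.

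On both strands, the PPAR-RXR repeat, which is AGGTCA 2 times with 1 base of any kind between the copies, was found in 0.0396% of all promoters and its half-site AGGTCA, which the repeat contains, in 16.3%. None of the windows of the 6 genes held either, which says only that these letters were not within these 300 bases. The CCAAT box (CCAAT, 37.4% of promoters) occurred 3 times in the Adipoq window, at 34, 27 and 7 bases before the start, and 2 times in the window of the first Adipor1 start. The GC box GGGCGG (35.7%) was found for Lep and Adipor1, and the palindrome TTGCGCAA of C/EBP factors (0.183%) once for Lep, 55 bases before the start. TATAAA (13.6% of promoters) was in none of them. These matches are letters in a sequence and no measured binding.

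The unit of the table is FPKM, the fragments on a gene scaled to the length of its exons and to the depth of the library. Between 18581300 and 26073154 mapped fragments per library were inferred from the steps between the values, so that the fragments on each gene could be recovered. Pparg itself was at 7.56, 5.10 and 6.92 FPKM in WT_0d, at 3.12, 3.53 and 4.59 in WT_5d, at 44.4, 28.0 and 46.4 in PPARγ/+_0d and at 40.1, 44.1 and 92.7 in PPARγ/+_5d, where reads of the transgene and of the cells' own gene are counted together. All PPARγ/+ libraries lay above all WT libraries. The third library of PPARγ/+_5d stood apart for fat cell genes, so the calls of the 8 genes and the list counts below that it changed are given with and without it. Among the 8 markers of fat cells other than the genes described here, it was the highest of its group for 7, at 1.30 to 4.78 times the mean of the other 2, whereas Myog, Ckm and Acta1, markers of myotubes, were at 1.07 to 1.37 times. Across all genes tested, 72 were at least 2-fold above both other libraries of the group with 1 FPKM or more there, within the range of 33 to 161 among the 12 libraries, and Adipoq, Cfd and Rarres2 were among them.

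**Figure D1:**
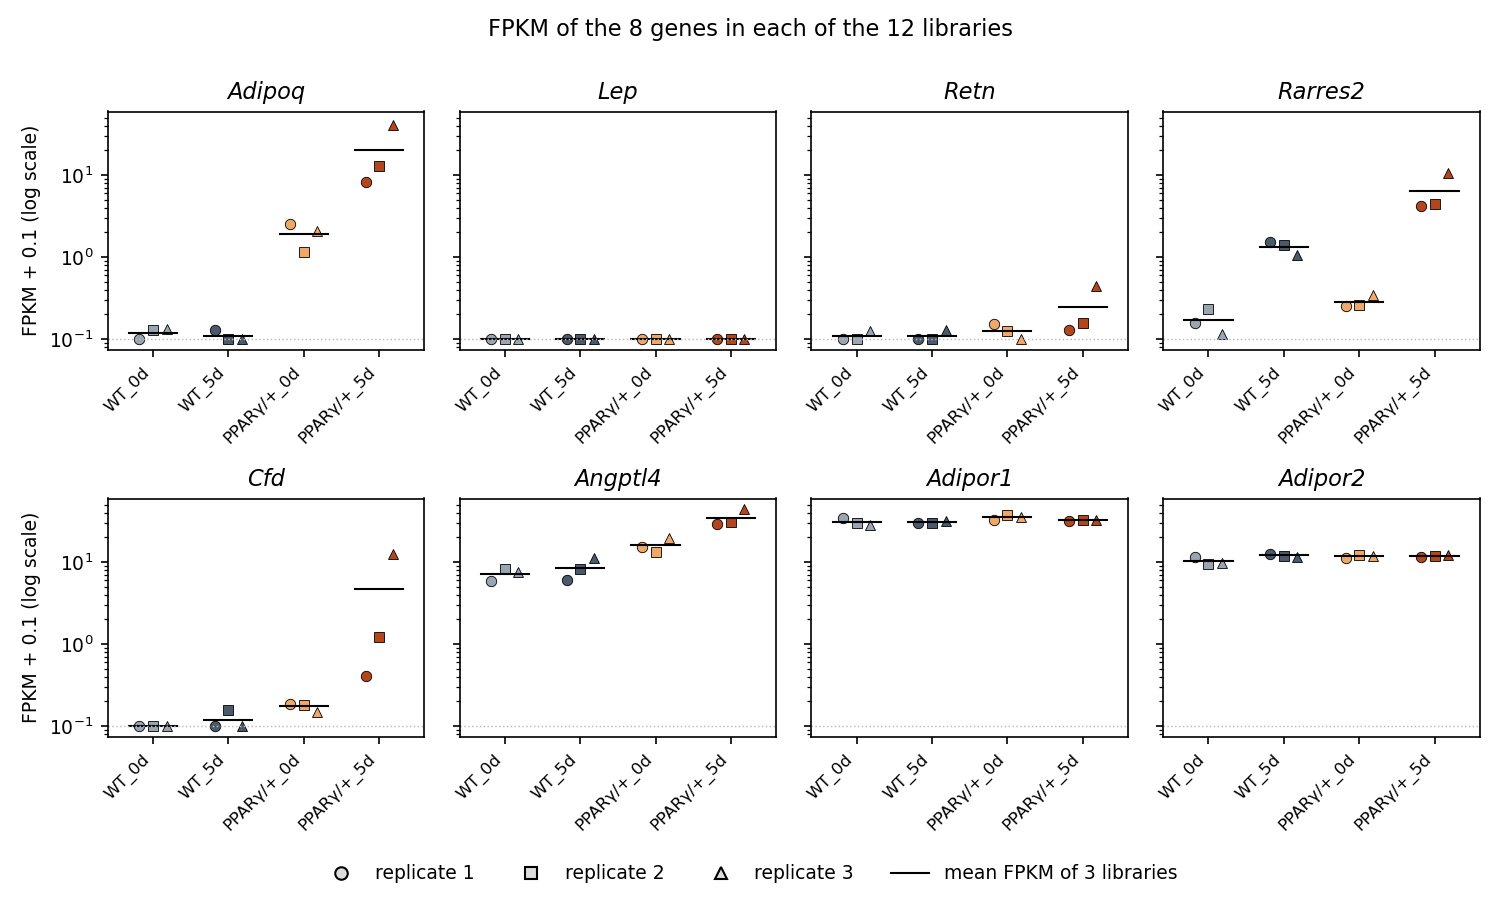
FPKM of each of the 8 genes in the 12 libraries, as FPKM + 0.1 on a log axis, with 1 point per library, shapes for the replicates and a line at the mean of the 3 libraries of a group. Adipoq rises from the dotted line at 0 FPKM in WT cells to between 8.03 and 40.5 FPKM in PPARγ/+_5d, Lep stays on that line in every library, and Adipor1 and Adipor2 lie at nearly the same height in all groups.

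Genes with 0.1 FPKM or more in at least 3 libraries were tested, 18023 in all and 6 of the 8. Lep and Retn were below this filter. Adipoq passed it through its 6 PPARγ/+ libraries alone and Cfd through the 3 libraries of PPARγ/+_5d alone, so both had to be higher there. For these comparisons their counts, fitted differences and p-values are a description and no support for a difference. Differences were fitted with limma on log2(FPKM + 0.1), which draws the fold change of a low gene toward 1. Within a cell type, a gene was called between 0d and 5d at an unadjusted p of at most 0.05 and a 2-fold change, the thresholds of the study. Between the cell types, on 0d or on 5d, a Benjamini-Hochberg adjusted p of at most 0.05 and a 2-fold change were required. All p-values below are adjusted p-values of limma over the 18023 genes unless said otherwise.

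From 0d to 5d, 1 of the 6 genes tested was called in WT cells, which was Rarres2, where 16.5% of all genes tested were called and 8.94% were called higher. Adipoq and Cfd were under 0.1 FPKM in all WT libraries. With 0.1 added, neither could reach a 2-fold change there, so the count in WT cells says nothing on these genes. In PPARγ/+ cells 4 were called, all higher on 5d (Adipoq, Rarres2, Cfd and Angptl4), where 15.2% of all genes were called and 9.11% were called higher. Between PPARγ/+ and WT cells 2 genes were called on 0d, both higher (Adipoq and Angptl4), beside 1.96% of all genes called and 0.571% called higher. On 5d 3 were called higher (Adipoq, Rarres2 and Angptl4), beside 1.1% called and 0.571% called higher. The 2 receptors were called in none of these 4 comparisons. Without the third library of PPARγ/+_5d, 3 genes were called from 0d to 5d in PPARγ/+ cells, with Angptl4 lost, and 4 between the cell types on 5d, with Cfd gained. Over all 18023 genes, that fit called 1623 higher and 1074 lower from 0d to 5d in PPARγ/+ cells, beside 1642 and 1093 with all libraries. Between the cell types on 5d it called 42 higher and 36 lower, beside 103 and 96.

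**Figure D2:**
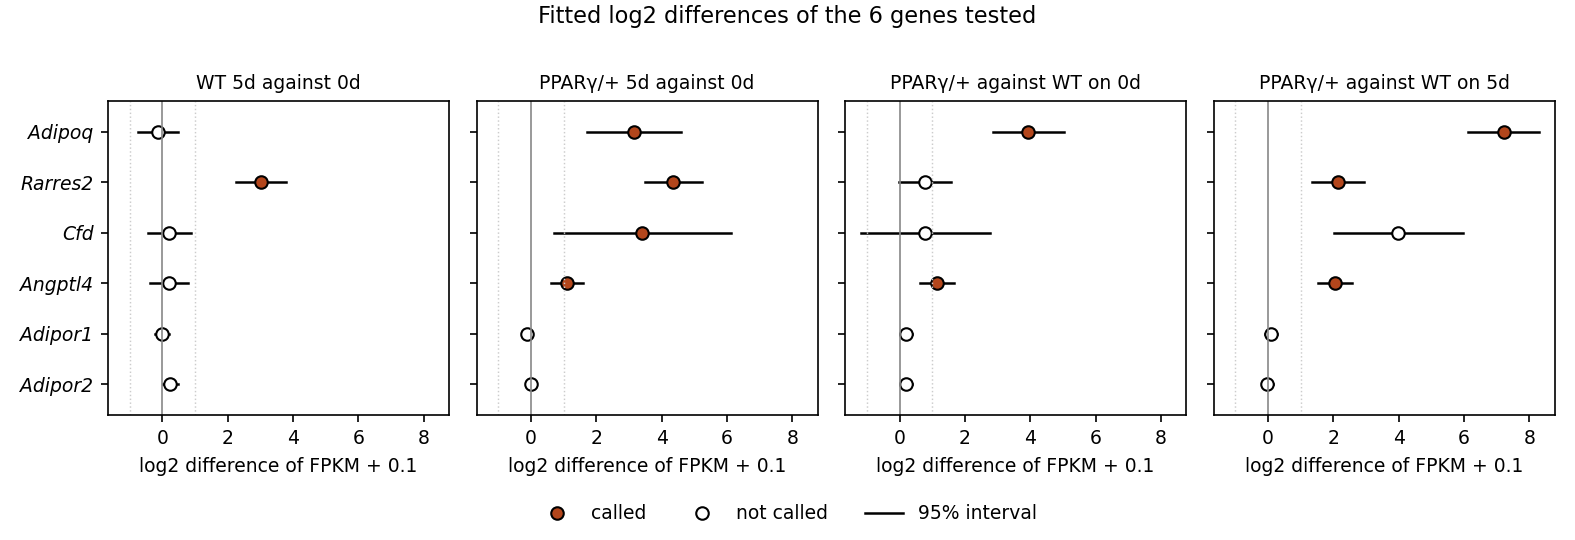
Fitted log2 differences of FPKM + 0.1 for the 6 genes tested, in 1 panel per comparison, with 95% intervals of limma, filled where called, and dotted lines at a 2-fold difference. Rarres2 is the one filled point in WT cells (3.02), the points of Adipor1 and Adipor2 lie within the dotted lines in all panels, and the interval of Cfd is the widest of the 6 in the PPARγ/+ panels.

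Adipoq (ENSMUSG00000022878, chr16:23146536-23158028, plus strand, GRCm38) encodes adiponectin, a hormone that raises fatty acid oxidation and insulin sensitivity. In WT_0d it was at 0, 0.0287 and 0.0313 FPKM, which were 0, 1 and 1 fragments, and in WT_5d at 0.0284, 0 and 0, with 1 fragment in all. In PPARγ/+_0d it was at 2.46, 1.06 and 1.96 FPKM, from 83, 38 and 59 fragments. In PPARγ/+_5d it was at 8.03, 12.7 and 40.5 FPKM, from 230, 376 and 1040 fragments. The 4 groups fell into 3 levels without overlap, with the WT groups together at the bottom, PPARγ/+_0d above them and PPARγ/+_5d at the top. The 2 WT groups did not differ beyond their spread (log2 difference on 5d minus 0d −0.13, SE 0.25, adjusted p = 0.716).

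Counted as fragments per mapped fragment, Adipoq was on 0d 84.4 times as high in PPARγ/+ as in WT cells (180 against 2 fragments, exact 95% interval 23.0 to 702, for counting error only). On 5d the ratio was 1828, with an interval from 328 to 72245 because it rested on 1 fragment in WT cells, and 969 (173 to 38338) without the third library of PPARγ/+_5d. In the fit the differences were 3.94 on the log2 scale on 0d (SE 0.49, adjusted p = 0.0019) and 7.22 on 5d (SE 0.49, adjusted p = 4.8e-05), and their size depends on the 0.1 added to values near 0. The call on 0d was lost when 1 was added instead (adjusted p = 0.079) and with limma voom on the fragments (0.110). Adipoq rose in PPARγ/+ cells over the 5 days by 3.15 (SE 0.60, adjusted p = 0.0051), or 10.9-fold in fragments (9.32 to 12.8). Without the third library the rise was 2.48 (SE 0.39, adjusted p = 0.0066), or 5.76-fold (4.87 to 6.85). Each of the 3 libraries on 5d was above each of the 3 on 0d.

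Beside Adipoq, the other markers of fat cells had summed levels of 19.0 to 24.7 FPKM in WT_0d, 21.5 to 30.5 in WT_5d, 25.5 to 28.4 in PPARγ/+_0d and 42.7 to 69.5 in PPARγ/+_5d, most of it from Cebpa and Pnpla2. Cidec, a protein of fat cell lipid droplets, was listed at 0 in all 6 WT libraries and was at 0.631 ± 0.617 FPKM (SD, n = 3) in PPARγ/+_5d. The part of these markers in the level of Adipoq was not tested. In a bulk sample, fewer cells that express a gene and less of its RNA per cell cannot be told apart. Summed markers of macrophages ranged from 2.96 to 8.07 FPKM over the libraries, and those of endothelial cells from 0.0224 to 0.233 FPKM. The defining macrophage gene Adgre1 was at 0 in 3 of the 4 groups. The exception was PPARγ/+_5d, where each of the 6 macrophage markers was above 0 in at least 1 library. Lyz2 was the one gene of that list called, from 0d to 5d in both cell types (0.534 ± 0.0588 to 2.49 ± 1.91 FPKM in WT cells, 1.57 ± 0.244 to 3.57 ± 0.558 in PPARγ/+ cells).

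Lep (ENSMUSG00000059201, chr6:29060220-29073877, plus strand) encodes leptin, the hormone by which fat tissue signals its stores to the brain. No fragment lay on it in any of the 12 libraries. With 3 fragments as the limit that a count of 0 allows, its level could have reached 0.0343 to 0.0481 FPKM, depending on the library. No difference between groups was detectable at this depth. Lepr, the leptin receptor, was at 0.0121 to 0.0196 FPKM on average in the 4 groups.

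Retn (ENSMUSG00000012705, chr8:3655770-3660110, plus strand) encodes resistin, a small secreted protein of mouse fat cells. It had 0, 0 and 1 fragments in WT_0d, 0, 0 and 1 in WT_5d and 2, 1 and 0 in PPARγ/+_0d. In PPARγ/+_5d it had 1, 2 and 10 fragments, which were 0.0305, 0.0589 and 0.341 FPKM. Only the third library of that group was above the limit of 3 fragments. The ratio on 5d was 14.4 (13 against 1 fragment, interval 2.17 to 614) with that library and 4.80 (3 against 1, interval 0.385 to 252) without it, so the difference lay in 1 library. The paralogs Retnla, Retnlb and Retnlg were listed at 0 in all libraries.

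Rarres2 (ENSMUSG00000009281, chr6:48569696-48572789, minus strand) encodes chemerin, a chemoattractant that also acts on fat cell formation and is secreted as a precursor. In WT_0d it was at 0.0582, 0.134 and 0.0163 FPKM, from 3, 9 and 1 fragments. In WT_5d it was at 1.43, 1.31 and 0.975 FPKM. In PPARγ/+_0d it was at 0.154, 0.159 and 0.241 FPKM and in PPARγ/+_5d at 4.07, 4.32 and 10.4 FPKM. The order of the groups was WT_0d, PPARγ/+_0d, WT_5d and PPARγ/+_5d, with no overlap between neighbours, although the lowest 2 groups did not differ in the test. This is the gene of the 8 that rose in both cell types.

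Over the 5 days Rarres2 rose by 3.02 on the log2 scale in WT cells (SE 0.32, adjusted p = 0.0010) and by 4.36 in PPARγ/+ cells (SE 0.37, adjusted p = 0.00018). As fragments per mapped fragment this was 17.2-fold (223 against 13, interval 9.86 to 32.8) and 33.5-fold (985 against 35, interval 23.9 to 48.3). Between the cell types the difference was 0.79 on 0d (SE 0.36, adjusted p = 0.235) and 2.13 on 5d (SE 0.36, adjusted p = 0.016). Without the third library of PPARγ/+_5d the difference on 5d was 1.70 (SE 0.30, adjusted p = 0.047) and the rise in PPARγ/+ cells 3.93 (SE 0.20, adjusted p = 0.00052). The call on 5d was lost without the second library of WT_5d (adjusted p = 0.058). The exons of Rarres2 share 892 bases with Lrrc61 on the opposite strand, and the library kit does not mark strand, so reads there cannot be told apart. Lrrc61 was at 1.94 ± 0.337, 3.57 ± 1.04, 2.75 ± 0.194 and 4.10 ± 0.181 FPKM (SD, n = 3) in WT_0d, WT_5d, PPARγ/+_0d and PPARγ/+_5d.

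Markers of myotubes moved with Rarres2 between the days. Their summed level was 10.03 to 105 FPKM in WT_0d and 7.54 to 24.5 in PPARγ/+_0d, and it reached 918 to 4150 in WT_5d and 960 to 1148 in PPARγ/+_5d. Within WT_5d the third library had the lowest sum (918 FPKM, against 4150 and 3186 in the first and second) and also the lowest Rarres2. Within WT_0d the second library had the highest sum (105 FPKM, against 15.9 and 10.03) and also the highest Rarres2. On 5d the PPARγ/+ libraries had lower sums than 2 of the 3 WT libraries and higher Rarres2 than all of them. The part of these markers in the level of Rarres2 was not tested.

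The receptor of chemerin, Cmklr1, was at 3.64 ± 0.937 FPKM in WT_0d, 6.82 ± 2.87 in WT_5d, 4.68 ± 1.43 in PPARγ/+_0d and 6.75 ± 0.497 in PPARγ/+_5d (SD, n = 3) and was not called in any comparison. Of 12 proteases that activate or inactivate chemerin, 4 were tested. In WT cells none was called from 0d to 5d, and in PPARγ/+ cells Plat (tissue plasminogen activator) rose from 17.9 ± 3.57 to 56.5 ± 1.81 FPKM and Plau (urokinase) from 8.46 ± 1.17 to 17.2 ± 0.265 (SD, n = 3, adjusted p = 0.00014 and 0.00032). Plau was on 0d lower in PPARγ/+ cells than in WT cells, where it was at 29.7 ± 7.80 FPKM (log2 difference −1.77, SE 0.27, adjusted p = 0.0054). The median log2 change of the 4 was 0.54 in WT and 0.98 in PPARγ/+ cells, beside −0.08 and −0.10 over all genes. Of all genes, 8.94% were called higher over the days in WT and 9.11% in PPARγ/+ cells. For none of the 4 was the change over the days called different between the cell types.

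Cfd (ENSMUSG00000061780, chr10:79890853-79892655, plus strand) encodes adipsin, also called complement factor D, the serine protease that cleaves factor B in the alternative complement pathway. In WT_0d it had no fragment, and in WT_5d 1 fragment in the second library. In PPARγ/+_0d it had 2, 2 and 1 fragments, which is within the limit of 3. In PPARγ/+_5d it had 6, 22 and 211 fragments, which were 0.313, 1.11 and 12.3 FPKM. The third library was 17.3 times the mean of the other 2, the widest spread among the 8 genes. All 3 libraries of PPARγ/+_5d were above all 9 others.

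In PPARγ/+ cells Cfd rose from 0d to 5d by 3.41 on the log2 scale (SE 1.14, adjusted p = 0.045), or 56.8-fold in fragments (239 against 5, interval 24.0 to 177). Without the third library on 5d it was 2.03 (SE 0.49, adjusted p = 0.024), or 9.59-fold (28 against 5, interval 3.65 to 31.8). The adjusted p was 0.109 to 0.125 when 1 of the PPARγ/+_0d libraries was left out. Between the cell types on 5d the difference was 3.98 (SE 0.90, adjusted p = 0.055) with all libraries, which was not called, and 2.61 (SE 0.43, adjusted p = 0.034) without the third, which was. Cfd was among the genes tested only through the PPARγ/+_5d libraries, so these values describe it. The ratio in fragments was 265 (239 against 1, interval 47.2 to 10527) and 44.8 (28 against 1, interval 7.40 to 1831). On 0d, 5 fragments in PPARγ/+ and 0 in WT cells gave a ratio whose lower 95% bound, 0.859, was below 1.

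The pathway in which adipsin acts was measured with 12 other genes, of which 8 were tested. From 0d to 5d, 5 of them were called higher and 1 lower in WT cells, and 4 higher and 1 lower in PPARγ/+ cells, with median log2 changes of 1.24 and 1.44 (all genes −0.08 and −0.10). Over all genes, 8.94% were called higher in WT and 9.11% in PPARγ/+ cells. C3, the central complement protein, rose from 0.631 ± 0.935 to 10.2 ± 7.08 FPKM in WT cells and from 1.30 ± 1.70 to 23.9 ± 8.34 in PPARγ/+ cells (SD, n = 3, adjusted p = 0.026 and 0.0030). Masp1, a protease that activates complement, rose from 20.9 ± 5.44 to 71.9 ± 39.0 FPKM in WT cells and from 35.2 ± 6.01 to 130 ± 15.7 in PPARγ/+ cells. Cd55, a membrane inhibitor, was called in PPARγ/+ cells (0.929 ± 0.307 to 9.54 ± 3.98 FPKM, adjusted p = 0.00034) and was at 2.03 ± 0.979 and 5.21 ± 3.14 in WT cells. C3ar1, the receptor of C3a, was the gene called lower in both. Without the third library of PPARγ/+_5d, 5 of the 8 were called higher and 0 lower in PPARγ/+ cells, and C3ar1 was not called. Cfb, the substrate of adipsin, was at 0.00993 to 0.0534 FPKM on average in the 4 groups. None of the 8 was called between the cell types on either day, and for none was the change over the days called different between them.

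Angptl4 (ENSMUSG00000002289, chr17:33773750-33781830, minus strand) encodes a secreted inhibitor of lipoprotein lipase. In WT_0d it was at 5.84, 8.19 and 7.39 FPKM, in WT_5d at 5.96, 8.06 and 11.1, in PPARγ/+_0d at 15.0, 13.2 and 19.6 and in PPARγ/+_5d at 28.9, 30.3 and 43.9. These values rest on 372 to 2681 fragments per library. The WT groups overlapped and did not differ beyond their spread (log2 difference 0.20, SE 0.24, adjusted p = 0.563), and both PPARγ/+ groups lay above them and apart from each other. Of the 6 secreted factors it was the most highly expressed per length in WT cells.

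On 0d Angptl4 was higher in PPARγ/+ than in WT cells by 1.14 on the log2 scale (SE 0.24, adjusted p = 0.019), a ratio of 2.17 in fragments (2.05 to 2.31). On 5d the difference was 2.04 (SE 0.24, adjusted p = 0.0022), a ratio of 4.09 (3.89 to 4.31), and 1.85 (SE 0.25, adjusted p = 0.013) without the third library. In PPARγ/+ cells it rose between the days by 1.10 (SE 0.20, adjusted p = 0.0043), a ratio of 2.16 (2.07 to 2.25). Without the third library the rise was 0.91 (SE 0.17, adjusted p = 0.012), or 1.88-fold (1.80 to 1.97), which is under the 2-fold limit, and it was also under it (0.97, adjusted p = 0.021) without the second library of PPARγ/+_0d. The call on 0d was lost when 1 of 3 libraries was left out, with an adjusted p of 0.061 without the first of WT_0d, 0.054 without the third of WT_0d and 0.083 without the third of PPARγ/+_0d.

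Lpl, the lipase that Angptl4 inhibits, was at 5.88 ± 1.17 FPKM in WT_0d and 4.89 ± 1.51 in WT_5d, and in PPARγ/+ cells it rose from 10.3 ± 2.40 to 40.1 ± 21.8 (SD, n = 3, adjusted p = 0.0058). On 5d Lpl was higher in PPARγ/+ than in WT cells by 2.92 on the log2 scale (SE 0.34, adjusted p = 0.0021). Its highest value, 65.2 FPKM, was again in the third library of PPARγ/+_5d, against 26.1 and 28.8 in the other 2. Vldlr, a receptor of triglyceride-rich lipoproteins, was called in both cell types, from 0.780 ± 0.265 to 5.25 ± 2.74 FPKM in WT and from 1.12 ± 0.127 to 3.99 ± 1.05 in PPARγ/+ cells. Lipg, an endothelial lipase, was on 0d lower in PPARγ/+ cells (0.607 ± 0.0896 against 1.73 ± 0.429 FPKM, adjusted p = 0.0097). Of the 9 genes around Angptl4 and Lpl, 7 were tested, and their median log2 change from 0d to 5d was 0.18 in WT and 0.44 in PPARγ/+ cells. For none of the 7 was this change called different between the cell types. Gpihbp1, which anchors Lpl on capillaries, had a mean of at most 0.0115 FPKM in any group.

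Adipor1 (ENSMUSG00000026457, chr1:134415378-134433351, plus strand), the adiponectin receptor that is most abundant in muscle, was the highest of the 8 genes per length in every group except PPARγ/+_5d, where its mean of 32.3 FPKM was close to the 34.4 of Angptl4. It was at 34.6, 29.5 and 28.2 FPKM in WT_0d, at 30.2, 29.9 and 31.3 in WT_5d, at 32.7, 37.9 and 35.1 in PPARγ/+_0d and at 31.3, 32.7 and 32.9 in PPARγ/+_5d. The means of the 4 groups spanned 30.5 to 35.3 FPKM. From 0d to 5d the log2 difference was −0.01 in WT cells (95% interval −0.23 to 0.21) and −0.12 in PPARγ/+ cells (−0.28 to 0.03). Between the cell types it was 0.20 on 0d (0.02 to 0.38, adjusted p = 0.185) and 0.08 on 5d (−0.09 to 0.26, adjusted p = 0.673). A 2-fold difference lay outside all 4 intervals.

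Adipor2 (ENSMUSG00000030168, chr6:119353150-119417704, minus strand), the receptor more abundant in liver, was lower than Adipor1 in every library. Its RefSeq start lies within this annotated span. It was at 11.4, 9.42 and 9.75 FPKM in WT_0d, at 12.5, 11.9 and 11.6 in WT_5d, at 11.3, 12.2 and 11.9 in PPARγ/+_0d and at 11.5, 11.7 and 11.97 in PPARγ/+_5d. In WT cells all 3 libraries on 5d were above all 3 on 0d, a log2 difference of 0.24 (95% interval 0.01 to 0.47, unadjusted p = 0.045, adjusted p = 0.098) that was under the 2-fold limit. In PPARγ/+ cells it was −0.01 (−0.14 to 0.12). Between the cell types it was 0.21 on 0d (0.04 to 0.38, adjusted p = 0.138) and −0.03 on 5d (−0.20 to 0.14, adjusted p = 0.897).

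Behind the receptors, adiponectin signals through adaptor proteins and AMP-activated protein kinase. Of 13 such genes, all tested, 1 was called from 0d to 5d in WT cells, none in PPARγ/+ cells (1 higher without the third library of PPARγ/+_5d, the adaptor Appl2), and none between the cell types. The gene called in WT cells was Prkaa2, a catalytic subunit of the kinase (0.731 ± 0.254 to 1.85 ± 0.415 FPKM in WT cells, SD, n = 3, adjusted p = 0.018), which was at 0.958 ± 0.211 and 1.08 ± 0.0251 in PPARγ/+ cells. The adaptor Appl1 was at 7.04 ± 0.205, 5.52 ± 0.513, 7.03 ± 0.551 and 5.84 ± 0.645 FPKM in WT_0d, WT_5d, PPARγ/+_0d and PPARγ/+_5d. The median log2 change of the 13 was −0.17 in WT and −0.21 in PPARγ/+ cells. For none of the 13 was the change over the days called different between the cell types. None of the 7 genes of adiponectin assembly and secretion was called in any comparison, P4hb, a protein disulfide isomerase, being at 328 ± 35.8 to 496 ± 92.8 FPKM. T-cadherin (Cdh13), a surface protein that binds adiponectin, was the one gene called of 6 tested receptors and binding partners, from 7.81 ± 3.25 to 29.6 ± 5.67 FPKM in WT and from 9.20 ± 2.65 to 20.6 ± 0.107 in PPARγ/+ cells (adjusted p = 0.0034 and 0.0022).

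The interaction of cell type and day, which is the 5d minus 0d difference of PPARγ/+ cells less that of WT cells, was fitted over all 12 libraries. None of the 6 genes was called at an adjusted p of at most 0.05, beside 0.76% of all genes, 0.583% with a positive interaction. At an unadjusted p of at most 0.05, 5 of the 6 genes and 12% of all genes passed. Among the 5, the interaction of Adipor2 was negative. Cfd was tested only through PPARγ/+_5d, which favours a positive interaction, and Adipoq was under the filter in all WT libraries. The count is therefore a description and no support for a difference. The interaction of Adipoq was 3.28 on the log2 scale (SE 0.70, adjusted p = 0.065), that of Cfd 3.19 (SE 1.27, adjusted p = 0.344), that of Rarres2 1.33 (SE 0.51, adjusted p = 0.318) and that of Angptl4 0.90 (SE 0.34, adjusted p = 0.306). Adipoq was called without the first library of PPARγ/+_5d (3.77, adjusted p = 0.044). For Adipor1 it was −0.11 (SE 0.11, adjusted p = 0.756) and for Adipor2 −0.24 (SE 0.11, adjusted p = 0.407). The calls in PPARγ/+ and not in WT cells are therefore not shown to differ between the cell types by this test. limma voom on the recovered fragments also called 0 of the 6. Array weights of limma called 3, which were Adipoq (adjusted p = 0.0072), Angptl4 (0.049) and Adipor2 (0.044). With these weights 1084 of all 18023 genes were called with a positive and 986 with a negative interaction, beside 105 and 32 without them.

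**Figure D3:**
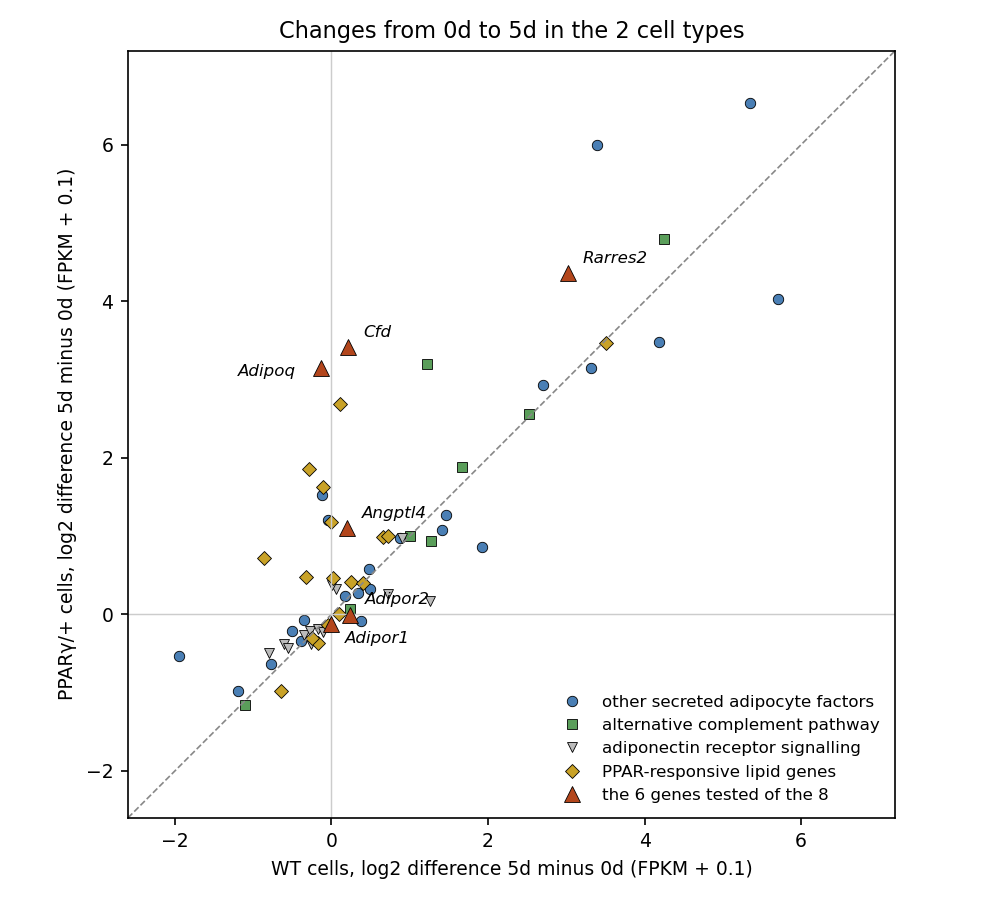
Log2 difference of FPKM + 0.1 from 0d to 5d in WT cells (horizontal axis) and PPARγ/+ cells (vertical axis) for the 6 genes tested and the tested genes of 4 lists, 1 point per gene, with the line of equal change dashed. Rarres2 lies at 3.02 and 4.36, whereas Adipoq and Cfd lie near 0 in WT cells and above 3 in PPARγ/+ cells.

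Other secreted factors of fat cells were measured with 28 genes, several of which muscle cells also make, of which 23 were tested. In WT cells 9 were called higher and 2 lower on 5d, and in PPARγ/+ cells 10 were called higher and none lower (10 and 1, Lgals3, without the third library of PPARγ/+_5d), with median log2 changes of 0.48 and 0.86 (all genes −0.08 and −0.10). Over all genes, 8.94% were called higher in WT and 9.11% in PPARγ/+ cells. Dpt (dermatopontin, a matrix protein) rose from 0.250 ± 0.0854 to 14.4 ± 5.11 FPKM in WT and from 0.186 ± 0.147 to 24.4 ± 1.82 in PPARγ/+ cells (SD, n = 3). Fgf21, a metabolic hormone, rose from 0.0310 ± 0.0536 to 8.49 ± 6.10 and from 0.0760 ± 0.0305 to 2.77 ± 0.515 FPKM. Igf1, a growth factor of muscle, rose from 1.29 ± 0.975 to 21.9 ± 4.94 FPKM in WT cells, with 3.004 ± 1.45 and 32.0 ± 3.73 in PPARγ/+ cells. Postn, a matrix protein, rose in PPARγ/+ cells from 0.429 ± 0.258 to 30.7 ± 2.39 FPKM and was lower there than in WT cells on 0d (2.84 ± 2.01, adjusted p = 0.023). The paralogs of adiponectin C1qtnf3 and C1qtnf1 were called in both cell types. C1qtnf3 rose from 8.56 ± 7.52 to 208 ± 140 and from 11.4 ± 4.75 to 130 ± 11.1 FPKM, and C1qtnf1 from 11.0 ± 2.14 to 25.9 ± 7.71 and from 9.32 ± 0.635 to 27.5 ± 0.360 FPKM. None of the 4 paralogs tested was called between the cell types.

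Of the 23 factors tested, 2 were called in the interaction, both positive, beside 0.583% of all genes called with a positive interaction. Spp1 was 1 of the 2. Without the third library of PPARγ/+_5d 1 factor was called. Between the cell types 2 were called lower on 0d and 1 higher on 5d, the latter not without that library. Over all genes, 1.96% were called on 0d and 1.1% on 5d. Spp1 (osteopontin) was at 904 ± 161 and 825 ± 67.3 FPKM in WT_0d and WT_5d and rose from 379 ± 55.3 to 1091 ± 196 in PPARγ/+ cells (interaction 1.64, SE 0.24, adjusted p = 0.015).

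Of 20 lipid genes that respond to PPAR receptors, 17 were tested. Between PPARγ/+ and WT cells 3 were called higher on 0d and 8 on 5d, and 4 on 5d without the third library, where the calls higher over all genes also fell, from 103 to 42. With all libraries, 0.571% of all genes were called higher on each day. Fabp4, a fatty acid binding protein of fat cells, was at 0.0305 ± 0.0199 and 0.0204 ± 0.0106 FPKM in WT_0d and WT_5d and at 1.86 ± 0.234 and 6.44 ± 3.39 in PPARγ/+_0d and PPARγ/+_5d (SD, n = 3, adjusted p = 9.8e-05 on 0d and 5.3e-06 on 5d). Plin1, a coat protein of fat droplets, was at 0.110 ± 0.0654 FPKM in PPARγ/+_0d and 1.45 ± 1.12 in PPARγ/+_5d, against 0.00284 ± 0.00492 and 0.0116 ± 0.0128 in WT_0d and WT_5d. Fabp4 and Plin1 were under the filter in WT cells and were tested only through PPARγ/+ libraries, so both had to be higher there. Their calls and p-values between the cell types are a description and no support for a difference. The counts of the list include Fabp4 on both days and Plin1 on 5d, so these counts are a description too. Cd36, a fatty acid transporter, rose in both cell types (0.0162 ± 0.00526 to 1.35 ± 0.766 FPKM in WT, 0.596 ± 0.385 to 6.84 ± 2.17 in PPARγ/+ cells). Lipe, the hormone-sensitive lipase, was at 1.56 ± 0.401 FPKM in WT_5d and 5.22 ± 2.06 in PPARγ/+_5d (adjusted p = 0.0087).

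Markers of fat cells, 10 genes with Adipoq and Lep among them, were called higher in PPARγ/+ than in WT cells for 3 of the 8 tested on 0d and for 6 on 5d, and for 5 on 5d without the third library. Over all genes, 0.571% were called higher on each day, and 42 of 18023 on 5d without that library. Adipoq, Fabp4, Plin1 and Cidec were tested only through PPARγ/+ libraries, so they had to be higher there. These counts are a description and no support for a difference. In WT cells none of the 8 markers was called between the days, and in PPARγ/+ cells 4 were, beside 16.5% and 15.2% of all genes. Adipoq, Fabp4, Plin1 and Cidec were under 0.1 FPKM in WT cells, so with 0.1 added none of them could reach a 2-fold change there. None of the 8 was called in the interaction, so a difference of these changes between the cell types is not shown. All 8 myotube markers were called higher on 5d in both cell types, with Myh3 from 2.95 ± 4.13 to 307 ± 219 FPKM in WT cells and from 0.290 ± 0.227 to 49.3 ± 6.92 in PPARγ/+ cells (SD, n = 3). None was called between the cell types, although their median log2 difference was −0.88 on 0d and −1.44 on 5d (all genes 0.02 on each day). Without the third library of WT_5d, which had the lowest sum of these markers in its group, 288 of all 18023 genes were called higher and 508 lower on 5d. Of 5 myoblast markers, Cdh15 and Myf5 were called lower in PPARγ/+ cells on 0d (7.71 ± 2.48 against 35.1 ± 12.8 FPKM, and 3.96 ± 0.297 against 12.02 ± 0.988). The 4 endothelial markers had 1 gene tested and none called.

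**Figure D4:**
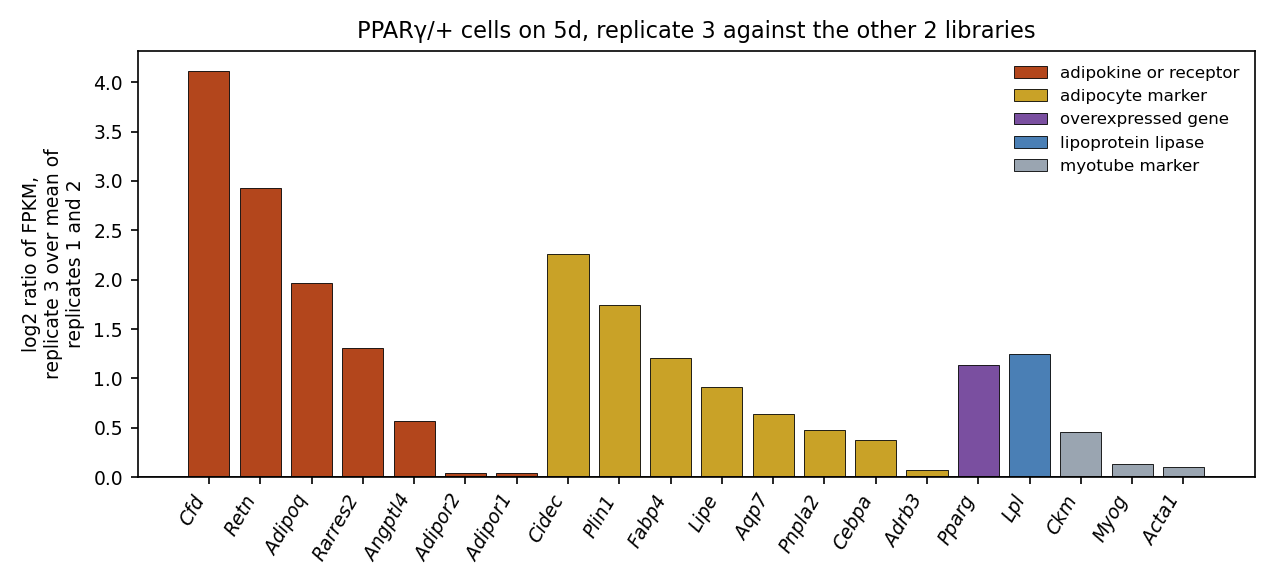
Log2 ratio of the FPKM in the third library of PPARγ/+_5d over the mean of the other 2 libraries of that group, 1 bar per gene, for the genes described here with a value above 0, markers of fat cells, Pparg, Lpl and 3 markers of myotubes. The bars of Cfd (4.11) and Retn (2.93) are the tallest and those of Adipor1 (0.04) and Adipor2 (0.04) the shortest.

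The third library of PPARγ/+_5d was the highest of its group for 7 of the 8 genes, all but Lep. Its ratio to the mean of the other 2 was 3.92 for Adipoq, 2.48 for Rarres2, 1.48 for Angptl4 and 1.03 for both receptors. Pparg was 2.20 times higher in it as well. Whether the level of Pparg in this library has a part in these values was not tested.

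The genes whose log2(FPKM + 0.1) followed each of the 6 most closely were taken by Pearson's r over the 12 libraries among 11680 genes with a mean of at least 1 FPKM. These libraries fall into 4 groups, so r describes likeness of pattern and carries no p. Adipoq was nearest to Fabp4 (r = 0.985), Parm1 (0.982) and Angptl4 (0.959), and Angptl4 to Parm1 (0.961), Adipoq (0.959) and Itpk1 (0.948). Cfd was nearest to Spag1 (0.902), Abcg1 (0.899) and Lpl (0.897). Rarres2 was nearest to Apoe (0.988), Gfra2 (0.981) and AI838599 (0.981). For the receptors, whose values varied little, the nearest were Rhbdd1 (0.963), Rnf114 (0.956) and Syf2 (0.936) for Adipor1 and Armc8 (0.942), Hist1h2bc (0.941) and Blzf1 (0.939) for Adipor2. Parm1 was at 0.0513 ± 0.0345, 0.0431 ± 0.0306, 0.635 ± 0.0723 and 3.91 ± 0.762 FPKM (SD, n = 3) in WT_0d, WT_5d, PPARγ/+_0d and PPARγ/+_5d, the order of the groups seen for Adipoq. Apoe was at 2.32 ± 0.723, 10.8 ± 2.33, 2.75 ± 0.500 and 32.9 ± 18.5 FPKM, the order seen for Rarres2.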

How the data were processed

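RNA of 12 libraries of mouse C2C12 cells, 3 in each of 4 groups taken from the sample labels, was measured by paired-end Illumina sequencing. Read trimming by the authors used Trim Galore, alignment STAR and counting HTSeq over Ensembl genes, and the values they deposited are FPKM. The study's methods name GRCm38 and the labels mm9, and positions here are those of GENCODE M21 on GRCm38. A second table deposited by the authors holds log2 values, log2(FPKM + 1), which differed from the first by at most 5.3e-14 and was not used further. The authors' counts were not analysed here.

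Fragments were inferred from the steps between FPKM values and the annotated exonic lengths, and came out whole within 0.02 for 78.6% of the 27138 genes above 0. For Cfd and Angptl4 the length was taken as the nearest one that gave whole fragments. Ratios of summed fragments carry exact (Clopper-Pearson) 95% intervals, and these and the limit of 3 fragments cover counting error only.

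limma 3.58.1 (R 4.3.3, empirical Bayes with a trend, two-sided) was run on log2(FPKM + 0.1) of 18023 genes with at least 0.1 FPKM in 3 or more libraries. The days were compared within each cell type on its own 6 libraries, and the cell types and the interaction over all 12. Tables were handled with Python 3.11.15, pandas 2.3.3, numpy 2.4.6, scipy 1.17.1 and matplotlib 3.10.9. On simulated data with 200 genes changed 4-fold, 100% were called in WT cells and in PPARγ/+ cells between the days, 99.0% between the cell types on 0d, 99.5% on 5d and 98.0% in the interaction. Calls among genes simulated without a change numbered 182 in WT and 198 in PPARγ/+ cells between the days, 9 between the cell types on 0d, 6 on 5d and 10 for the interaction. The changed genes were drawn from those with a mean of at least 1 FPKM, and all genes were given the same dispersion of counts. These shares therefore do not carry over to genes near 0 in a group or with a wider spread, such as Adipoq and Cfd.

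The 8 genes and the gene lists, which were written by hand from general knowledge, were chosen with earlier results of these data known. The text names the 8 genes, Pparg, up to 3 called genes of each list with the largest change (mean of the higher group 1 FPKM or more), and the 3 genes nearest to each of the 6 by r. Of the markers of myoblasts, myotubes and macrophages only some of these are named, and Lepr, Lrrc61, Cmklr1, Cfb, Cd55, C3ar1, Gpihbp1, Cidec, Adgre1, Appl1, Appl2, Lgals3 and P4hb were named in addition, after their values were seen. Some genes that this rule takes are not reported here. Alternatives were other pseudocounts, filters, scalings and call rules, array weights, voom, a replicate block, all 12 libraries in one fit and each library left out. Giving results without the third library of PPARγ/+_5d was decided after the data were seen.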

Additional observations from a re-analysis of the deposited data

How the results depend on the processing

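Each comparison was refitted with 1 choice changed at a time. Of 583 refitted values of single genes, 542 kept their direction and side of the threshold, 14 lost the call, 13 gained one and 14 changed sign. With each library left out in turn, 1 of the 6 genes was called from 0d to 5d in WT cells each time, 2 to 4 in PPARγ/+ cells, 1 to 2 between the cell types on 0d, 2 to 4 on 5d and 0 to 1 in the interaction. On 0d between the cell types, 1 gene in place of 2 was called with a pseudocount of 1 and 1 with voom, and Adipoq lost its call in both (adjusted p = 0.079 and 0.110). In the interaction 3 were called with array weights and 3 at an unadjusted p of at most 0.05 with a 2-fold difference, where 1084 and 444 of all genes were called with a positive and 986 and 303 with a negative interaction, beside 105 and 32 in the fit reported. The limits that the filter sets for Adipoq and Cfd hold for these counts too. Between the days in PPARγ/+ cells, Cfd lost its call with a pseudocount of 1 (adjusted p = 0.132), without a filter (0.141) and without any 1 library of PPARγ/+_0d (0.109 to 0.125). These calls were made at the unadjusted p. Cfd kept its call with quantile normalization, voom and without the second library of PPARγ/+_5d, where the adjusted p was 0.061, 0.080 and 0.088. Cfd gained a call between the cell types on 5d with a pseudocount of 0.01 (0.028), with array weights (0.0014) and without the third library of WT_5d (0.038) or the first or the third of PPARγ/+_5d (0.017 and 0.034). Rarres2 lost its call on 5d with a pseudocount of 0.01 (0.092) and without the second library of WT_5d (0.058).

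Changes of sign were found for small, uncalled differences. Median-ratio scaling moved the median of all genes from −0.08 to 0.02 in WT cells and from −0.10 to 0.02 in PPARγ/+ cells. In WT cells between the days Adipor1 was at 0.12 with median-ratio scaling, 0.11 with quantile normalization and 0.016 with voom, and from −0.070 to 0.077 with each library left out, and Angptl4 from −0.028 (without the third library of WT_5d) to 0.42. In PPARγ/+ cells Adipor1 was at 0.0058 and 0.0094 with these scalings, and Adipor2 at 0.12, 0.13 and 0.024 with them and voom, and from −0.040 to 0.018 with each library left out. The cause was not tested.

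The replicate numbers were not treated as a pairing, since same-numbered libraries correlated in their deviations from the group means by only −0.07 to 0.08 over 18 pairs. With the replicate number as a block, 1 gene was called from 0d to 5d in WT cells, 4 in PPARγ/+ cells, 2 on 0d, 3 on 5d and 0 in the interaction, and no call changed. A filter at 1 FPKM left Cfd untested. Depth limits Lep in all groups. Outside PPARγ/+_5d, Retn and Cfd rest on 0 to 2 fragments per library, and the first and second libraries of PPARγ/+_5d hold 1 and 2 of Retn. Adipoq rests on 0 to 1 fragments per library in WT cells, and Rarres2 on 1 to 9 in WT_0d.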
